A study of Arabidopsis thaliana with 18 samples.

Results

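Roots of the *lpcat* mutant were compared with WT roots on the medium that held lysoPAF together with ONO, over all genes of the deposited table. The libraries were chosen by their labels, 3 of *lpcat* and 3 of WT, which are 6 of the 18 libraries in the series. *lpcat* is the double mutant labelled lpcat1/2, which carries alleles of LPCAT1 and LPCAT2 from Salk insertion lines, and WT is the ecotype Col-0. Both genotypes had grown with 20 µg/mL of lysoPAF plus ONO-RS-082 (ONO), and their roots were collected at day 5 after germination. The labels give 50 µM as the dose of ONO, whereas the study's own text gives it in µg/mL, and this was not resolved. In the other 12 libraries the same genotypes had grown on control medium or on lysoPAF alone, and no group had ONO without lysoPAF. The labels do not say how many roots went into a library or whether the replicates of a group were separate cultures. The p-values therefore measure the spread between these samples, which may be technical.

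In the Lands cycle, a phospholipase A2 removes a fatty acid from phosphatidylcholine (PC), which leaves lysophosphatidylcholine (LPC), and an acyltransferase of the LPCAT family puts a fatty acid back. The *lpcat* mutant is impaired in the return step. LysoPAF is an analog of LPC whose chain is held by an ether bond, so that lysophospholipases do not cleave it, and ONO is known as an antagonist of phospholipase A2. The comparison asks which transcripts differ between the genotypes when the analog and the antagonist are both in the medium. Deacylation itself was not measured in these data.

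Each value is a normalized count, that is, the reads of a gene divided by a size factor of the library. The 6 libraries held 9147090 to 16767002 reads in genes, with the most in *lpcat* replicate 1. On the first principal component of these 6 libraries, which held 59.6% of the variance, the *lpcat* libraries were at -14.7, -30.2 and -27.7 and the WT libraries at 26.6, 27.5 and 18.7. *lpcat* replicate 1 thus lay nearest to WT, and WT replicate 3 was set apart from the other WT libraries on the second component. Markers of photosynthetic shoot tissue summed to 1250, 3200 and 3588 normalized counts in *lpcat* replicates 1, 2 and 3, against 1530, 1554 and 2144 in WT replicates 1, 2 and 3. Seed storage markers summed to 20.085, 153 and 170 normalized counts in *lpcat*, against 44.1, 41.1 and 55.0 in WT. In both lists *lpcat* replicate 1 was the lowest library and *lpcat* replicates 2 and 3 the highest, and 0 of 13 and 0 of 5 markers passed the test. Results were therefore also computed without the 3 libraries of the highest shoot marker level (*lpcat* replicates 2 and 3 and WT replicate 3), an alternative added after these values were seen, which leaves a lone *lpcat* library whose spread is assumed to be that of the other groups. Of the root identity genes, SHR, SCR, WOX5, GL2, WER and PLT1 were detected in all 6 libraries. Among the other 12 libraries, *lpcat* control replicate 2 lay far from its fellow replicates: the first component of all 18 libraries placed it at -34.3 and them at 30.4 and 33.6, while the *lpcat* libraries on lysoPAF were at -30.9 to -38.9. On the second component it was at -19.3, within the -14.5 to -20.3 of those lysoPAF libraries. It enters every control-medium value and every interaction with the combined treatment. Values of single genes on control medium and these interactions are therefore in most cases also given without it. Counts of genes called on control medium include it and were not recomputed without it. The part of these library differences in the results was not tested.

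**Figure D1:**
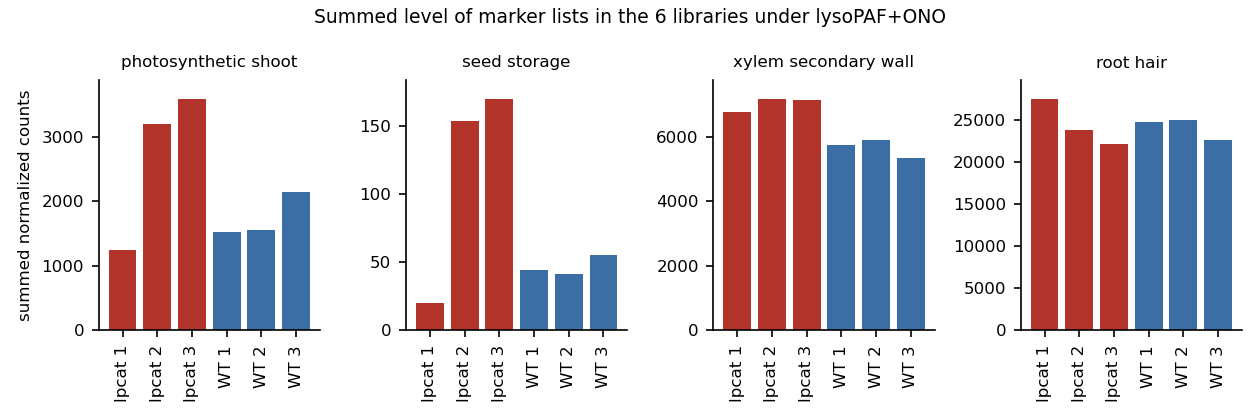
Summed normalized counts (vertical axis, from 0) of the genes of 4 marker lists in each of the 3 *lpcat* and 3 WT libraries under lysoPAF+ONO. Shoot and seed storage markers are lowest in *lpcat* replicate 1 (1250 and 20.085) and highest in *lpcat* replicate 3 (3588 and 170), xylem markers are higher in the *lpcat* libraries, and root hair markers overlap.

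LPCAT1 (AT1G12640), one of the disrupted acyltransferase genes, had 58.4, 66.4 and 62.9 normalized counts in *lpcat*, against 342, 286 and 307 in WT. In log2 terms *lpcat* was at -2.30 ± 0.14 relative to WT (limma estimate ± standard error, as in all that follow; adjusted p = 5.19e-09), so the transcript was reduced but not absent. LPCAT2 (AT1G63050), the other disrupted gene, had 774, 718 and 744 normalized counts in *lpcat*, against 207, 213 and 195 in WT. It was higher in every *lpcat* library (log2 fold change 1.86 ± 0.10, limma adjusted p = 6.47e-10). Counts summed over a gene do not show from which stretch of LPCAT2 the reads come. AT1G63055, a gene of unannotated function that lies 1 gene away from LPCAT2, had 142, 212 and 182 normalized counts in *lpcat* and 5.62, 11.6 and 9.17 in WT (log2 fold change 4.23 ± 0.29, limma adjusted p = 3.25e-08). The library kit does not mark strand, so reads from overlapping or antisense genes cannot be told apart. The rise of LPCAT2 was larger here than on control medium, by 0.70 on the log2 scale (limma adjusted p = 0.0162 for the interaction, a size of 0.77 without *lpcat* control replicate 2, and the call lost in 4 of 24 alternatives).

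Limma called 226 genes higher and 49 lower in *lpcat*. A call required an adjusted p below 0.05 together with a change of more than 1 log2 unit in either direction. The calls are 0.951% and 0.206% of the 23760 genes tested, so rises made up 82.2% of the calls, and this share lay between 76.8% and 83.2% over the other tools, scalings and filters. In 225 of the 226 and in all 49, the *lpcat* and WT libraries did not overlap; over all genes tested, 12.8% lay without overlap higher and 11.4% lower in *lpcat*. The median log2 fold change of all genes was 0.01. The counts depended on single libraries. Leaving out *lpcat* replicate 1, 2 or 3 gave 184, 75 and 116 rises with 26, 20 and 46 falls, and leaving out WT replicate 1, 2 or 3 gave 93, 89 and 176 rises with 20, 24 and 33 falls. Leaving out *lpcat* control replicate 2, which enters only through the shared estimate of the spread, gave 402 and 105. For the lists and single genes below, statements on leaving out 1 library concern the 6 libraries unless another library is named. Without the 3 libraries of highest shoot marker level, 29 and 28 were called, of which 24 and 9 were among the 226 and 49.

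**Figure D2:**
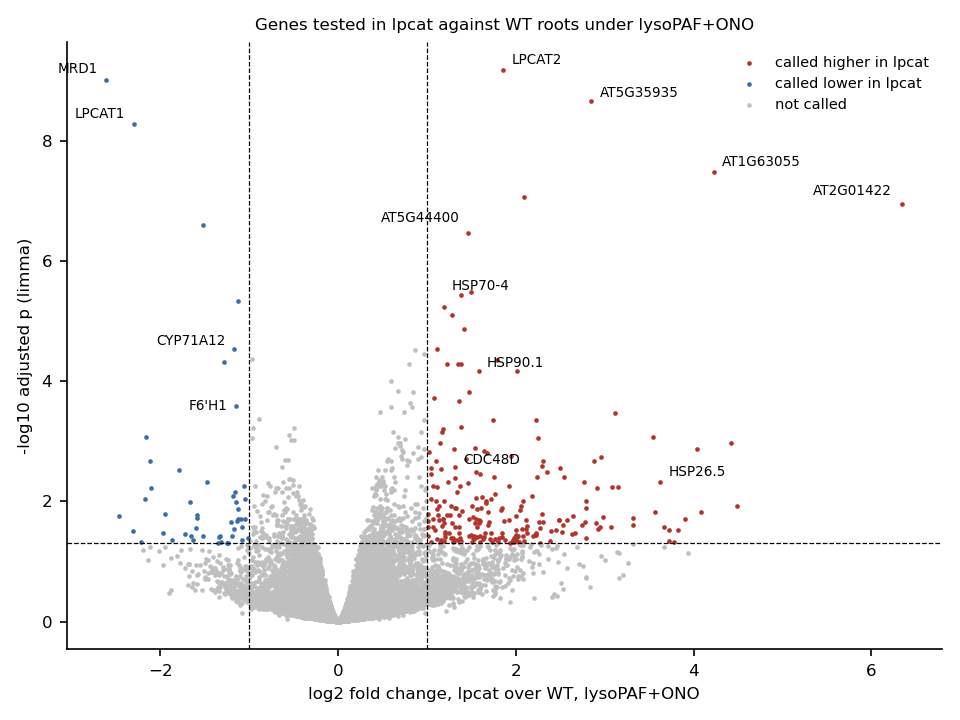
Log2 fold change of *lpcat* over WT under lysoPAF+ONO (horizontal axis) against -log10 of the limma adjusted p (vertical axis), 1 point per gene tested, with dashed lines at the thresholds of the call. The 226 genes called higher (red) outnumber the 49 called lower (blue), and LPCAT1 and LPCAT2 lie on opposite sides.

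The tryptophan-derived defence pathway makes camalexin and indole glucosinolates. Of its 14 genes tested, 5 fell and 1 rose in *lpcat*, 4 had a positive log2 fold change, where 1.14% of all genes fell and 2.13% rose at an adjusted p under 0.05, and the median log2 fold change was -0.42. CYP71A12, a cytochrome P450 that acts on indole-3-acetaldoxime, had 1829, 2557 and 2675 normalized counts in *lpcat*, against 5301, 5151 and 5247 in WT. The WT libraries were close to each other and *lpcat* replicate 1 was the lowest of all, and the groups did not overlap (log2 fold change -1.17 ± 0.13, limma adjusted p = 2.92e-05). CYP81F2, which modifies indole glucosinolates, had 522, 631 and 699 normalized counts in *lpcat*, against 1234, 1167 and 1208 in WT (log2 fold change -0.97 ± 0.11, limma adjusted p = 4.21e-05). CYP79B2, which makes indole-3-acetaldoxime from tryptophan, had 3436, 2721 and 3182 normalized counts in *lpcat* and 4282, 4126 and 4531 in WT (log2 fold change -0.48, limma adjusted p = 0.008, and not past the threshold without *lpcat* replicate 2). The other falls were GSTF6, a glutathione S-transferase of camalexin synthesis (-0.76 on the log2 scale, limma adjusted p = 0.0124), and the myrosinase gene PEN2 (log2 fold change -0.36, limma adjusted p = 0.0371). The 1 member that rose was WRKY33, a transcription factor known to activate camalexin genes, with 1442, 2010 and 1820 normalized counts in *lpcat* and 973, 953 and 998 in WT (log2 fold change 0.84 ± 0.11, limma adjusted p = 0.000266). PAD3, which carries out the last step to camalexin, had 99.2, 138 and 175 normalized counts in *lpcat* and 56.2, 55.8 and 84.8 in WT. It did not pass (log2 fold change 1.05, limma adjusted p = 0.179), and neither did CYP71A13, the close relative of CYP71A12 (log2 fold change -1.30, limma adjusted p = 0.121). Leaving out 1 of the 6 libraries at a time gave 3 or 4 falls, and leaving out *lpcat* control replicate 2 gave 8 falls and 2 rises. CYP71A12 and CYP81F2 were at -1.51 and -1.20 without the 3 libraries of highest shoot marker level.

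GSTF7, a phi-class glutathione S-transferase whose locus neighbours GSTF6 and whose sequence is near to it, had 3848, 5384 and 5747 normalized counts in *lpcat*, against 8871, 8865 and 9506 in WT. The highest *lpcat* library was below every WT library (log2 fold change -0.88 ± 0.12, limma adjusted p = 0.000423). Of 30 tau and phi glutathione S-transferases, 4 rose and 3 fell, where 2.13% of all genes rose and 1.14% fell, with a median log2 fold change of 0.07. The 3 that fell, GSTF3, GSTF6 and GSTF7, are of the phi class, and the 4 that rose, GSTU4, GSTU5, GSTU18 and GSTU20, are of the tau class. GSTU5 was at 1.01 (limma adjusted p = 0.0162) and GSTF3 at -1.17 (limma adjusted p = 0.0292) on the log2 scale. Reads of near-identical family members may have been split between them. The counts were 1, 0 and 2 rises and 1, 2 and 3 falls without *lpcat* replicate 1, 2 or 3, and 0, 1 and 1 rises and 2, 2 and 1 falls without WT replicate 1, 2 or 3. They were 8 rises and 5 falls without *lpcat* control replicate 2.

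F6'H1, the hydroxylase that commits phenylpropanoids to scopoletin and other coumarins, had 589, 671 and 838 normalized counts in *lpcat*, against 1561, 1424 and 1630 in WT. The groups were far apart relative to their spread (log2 fold change -1.15 ± 0.15, limma adjusted p = 0.000258). The call held without each of the 6 libraries and without the 3 of highest shoot marker level (-1.34). Among 25 genes of iron deficiency, to which F6'H1 belongs, NRAMP1, an uptake transporter of iron and manganese, also fell (log2 fold change -0.95, limma adjusted p = 0.0342), and NAS2, which makes the metal chelator nicotianamine, rose (log2 fold change 1.36, limma adjusted p = 0.0267). The median of the list was 0.19, and over all genes tested 1.14% fell and 2.13% rose. NRAMP1 did not pass without any 1 of the 6 libraries, and NAS2 passed only without WT replicate 3.

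Among the largest falls, MRD1 had 51.7, 41.2 and 59.9 normalized counts in *lpcat* and 311, 349 and 278 in WT (log2 fold change -2.60 ± 0.14, limma adjusted p = 9.31e-10). AT2G43590, a chitinase family gene, had 844, 1244 and 1254 normalized counts in *lpcat* and 3344, 3526 and 3577 in WT (log2 fold change -1.67, limma adjusted p = 0.01). AT1G12010, a gene of the 2-oxoglutarate-dependent oxygenase family, had 79.1, 60.8 and 67.8 normalized counts in *lpcat* and 242, 235 and 246 in WT (log2 fold change -1.79, limma adjusted p = 0.00304). For all 3 the lowest WT library exceeded every *lpcat* library, which the rule that named the largest falls required. AT5G35940, a mannose-binding lectin gene, fell by 1.52 on the log2 scale (limma adjusted p = 2.43e-07), while the next locus, the pseudogene AT5G35935, had 489, 413 and 383 normalized counts in *lpcat* and 59.98, 42.1 and 77.9 in WT (log2 fold change 2.85, limma adjusted p = 2.13e-09). Reads of the 2 adjacent loci are uncertain for the reason given for AT1G63055. The other large falls were the leucine-rich repeat gene AT3G19320 (-2.16), AT1G65486 (-2.11), the metacaspase gene MC2 (-1.60), AT1G49310 (-1.59), the cysteine-rich domain gene AT5G17960 (-1.58) and AT1G65845 (-1.52). AT3G19320 and AT1G65486 passed without each of the 6 libraries. In the 6 fits without 1 of these libraries, MC2 passed in 1, AT1G49310 and AT5G17960 in 2 each and AT1G65845 in 0.

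Aquaporins are water channels of the plasma membrane and the vacuole. Of 22 aquaporin genes tested, 5 fell and 0 rose in *lpcat*, where 1.14% of all genes fell and 2.13% rose, 20 had a negative log2 fold change and the median was -0.30. PIP1;4, of the plasma membrane class, had 657, 560 and 645 normalized counts in *lpcat*, against 965, 956 and 888 in WT (log2 fold change -0.60 ± 0.10, limma adjusted p = 0.00206). PIP2;7, also of the plasma membrane, had 3803, 3193 and 3554 normalized counts in *lpcat*, against 5261, 5058 and 5141 in WT (log2 fold change -0.55 ± 0.11, limma adjusted p = 0.00585). TIP2;2, of the vacuolar membrane, had 1959, 1821 and 2415 normalized counts in *lpcat*, against 3245, 3063 and 2895 in WT (log2 fold change -0.58, limma adjusted p = 0.0239). In each of these the groups did not overlap, and *lpcat* replicate 2 was the lowest library. PIP1;3 (log2 fold change -0.43, limma adjusted p = 0.0284) and PIP1;5 (log2 fold change -0.64, limma adjusted p = 0.0388) also fell. The number that passed was 2, 1 and 5 without *lpcat* replicate 1, 2 or 3, it was 2, 2 and 5 without WT replicate 1, 2 or 3, and 0 without the 3 libraries of highest shoot marker level. With *lpcat* control replicate 2 left out, 8 aquaporin genes fell. PIP1;4 passed without each of the 6 libraries. In bulk roots, fewer cells of a type and less RNA per cell cannot be told apart.

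**Figure D3:**
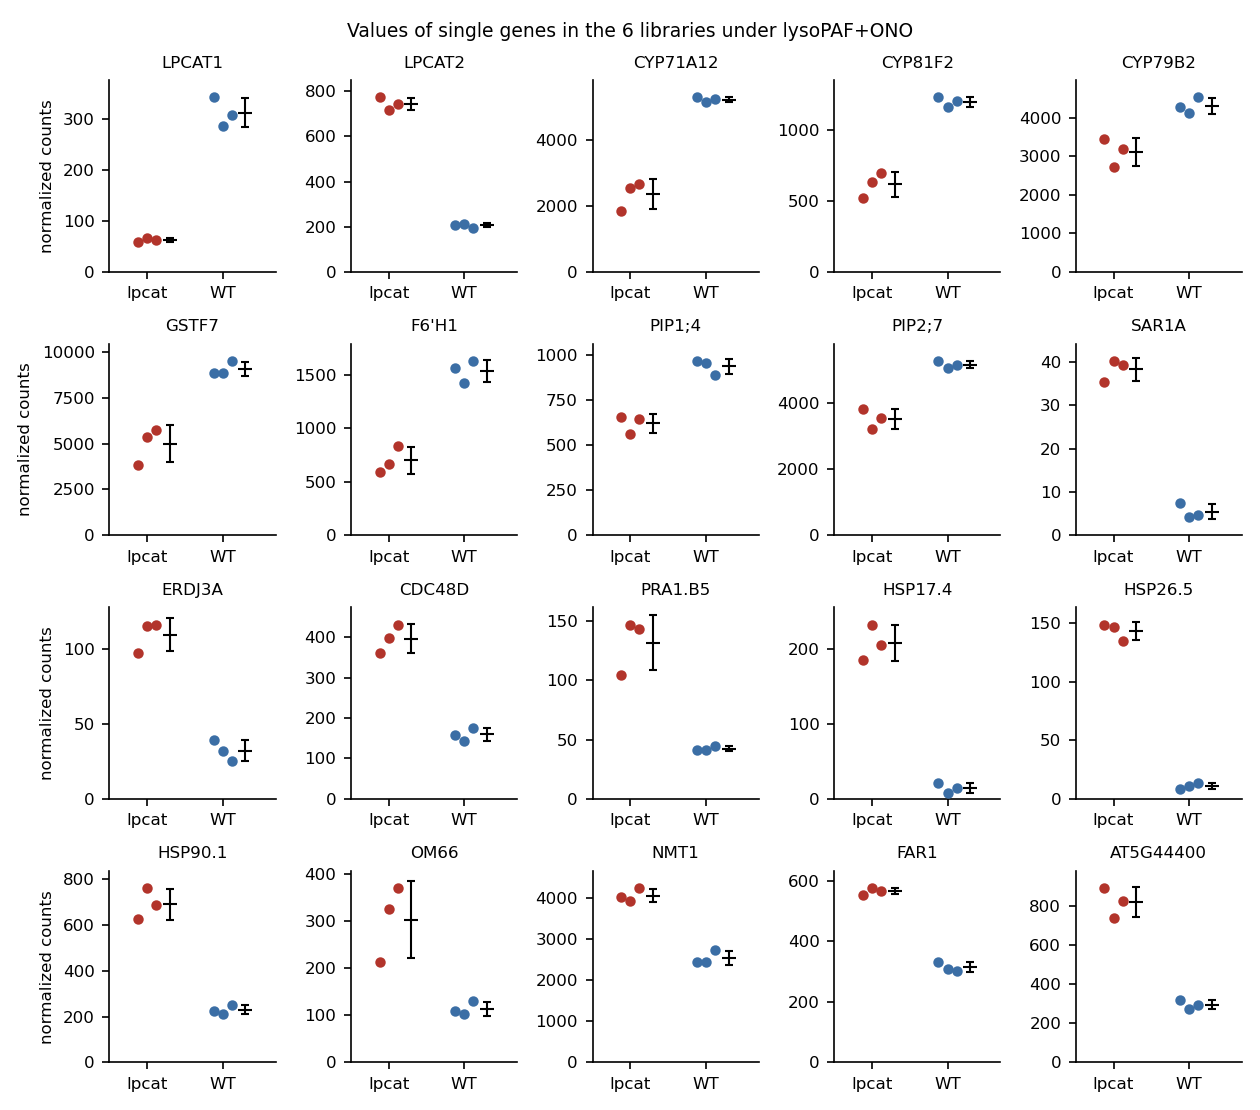
Normalized counts (vertical axes, from 0) of 20 genes in the 3 *lpcat* (red) and 3 WT (blue) libraries under lysoPAF+ONO, with the mean and SD beside each group. The groups do not overlap in any of the 20, for example CYP71A12 at 1829 to 2675 in *lpcat* and 5151 to 5301 in WT.

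Genes of the secretory pathway and the endoplasmic reticulum (ER) were higher in *lpcat* where they passed the test, but most ER chaperones did not pass. ERDJ3A, a J-domain cochaperone of the ER, had 96.8, 115 and 116 normalized counts in *lpcat*, against 39.4, 31.6 and 25.2 in WT (log2 fold change 1.76 ± 0.31, limma adjusted p = 0.00396). CDC48D, an AAA ATPase of the family that extracts proteins from membranes for degradation, had 360, 398 and 431 normalized counts in *lpcat*, against 158, 144 and 175 in WT (log2 fold change 1.31 ± 0.21, limma adjusted p = 0.00135). PRA1.B5, of the prenylated Rab acceptor family, had 105, 147 and 143 normalized counts in *lpcat*, against 41.2, 41.1 and 44.7 in WT (log2 fold change 1.60 ± 0.28, limma adjusted p = 0.00343). All 3 passed without each of the 6 libraries, and none passed without the 3 libraries of highest shoot marker level, where their log2 fold changes were 1.43, 1.25 and 1.33. SAR1A, a GTPase of the COPII coat that buds vesicles from the ER, had 35.3, 40.2 and 39.3 normalized counts in *lpcat*, against 7.50, 4.21 and 4.58 in WT (log2 fold change 2.64 ± 0.59, limma adjusted p = 0.0173). The call for SAR1A was lost without *lpcat* replicate 2 or 3 or WT replicate 2 or 3 (highest limma adjusted p = 0.0822). SEC31A, another COPII coat gene, had 174, 279 and 247 normalized counts in *lpcat* and 17.81, 20.0 and 43.5 in WT. Its groups did not overlap, but it did not pass in the fit that shares 1 spread over all 18 libraries (log2 fold change 3.14 ± 0.93, limma adjusted p = 0.069). SEC31A passed in 5 of 10 other settings of tool, scaling, filter and design, and in 0 of the 6 fits without 1 of these libraries. It had 1.04, 165 and 3.73 normalized counts in *lpcat* control replicates 1, 2 and 3, and passed without replicate 2 of these.

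BZIP60, the transcription factor that is spliced in the unfolded protein response, had 457, 577 and 554 normalized counts in *lpcat*, against 313, 307 and 300 in WT (log2 fold change 0.78, limma adjusted p = 0.0332). It passed only without *lpcat* replicate 1 when single libraries were left out (adjusted p up to 0.156), and without the 3 libraries of highest shoot marker level it was at 0.56 (limma adjusted p = 0.518). Of 11 ER stress sensors and regulators, 4 rose and 0 fell, where 2.13% of all genes rose and 1.14% fell. The others that rose were TIN1 (2.23), NAC103 (1.34) and the membrane-bound factor NAC062 (0.87). The median of that list was 0.19. Of 22 ER chaperones and folding enzymes, ERDJ3A and the protein disulphide isomerase gene PDIL1-2 (0.43) rose and 0 fell, with a median of 0.07. BIP3, the stress-induced member of the BiP chaperones, had 103, 139 and 117 normalized counts in *lpcat* and 32.8, 35.8 and 36.7 in WT but did not pass (log2 fold change 1.73, limma adjusted p = 0.218), and BIP1 and BIP2 were at 0.13 and 0.07. The number of regulators that passed was 3, 1 and 1 without *lpcat* replicate 1, 2 or 3, was 1, 1 and 2 without WT replicate 1, 2 or 3, and was 0 without the 3 libraries of highest shoot marker level. With *lpcat* control replicate 2 left out, 5 regulators rose. TIN1 passed without each of the 6. NAC103 did not pass without any 1 of them.

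The study names in its text, or shows in its heat map of trafficking genes, 16 genes of the unfolded protein response and vesicle trafficking. EXO70H2, EXO70H4, ROP9 and VPS45 are not named in its text. Of these, 7 rose and 0 fell, where 2.13% of all genes rose and 1.14% fell, with a median log2 fold change of 1.07. The study chose this list on these samples, so the count is not independent evidence of its direction. The 7 were BZIP60, ERDJ3A, CDC48D, PRA1.B5, SAR1A, NAC103 and the gene of a development and cell death domain protein, DCD (log2 fold change 0.74, limma adjusted p = 0.0425). Of the others, EXO70H2, an exocyst subunit gene, had 292, 271 and 275 normalized counts in *lpcat* and 556, 546 and 561 in WT (log2 fold change -0.99, limma adjusted p = 0.0603). The vacuolar sorting gene VPS45 was at 0.07 (limma adjusted p = 0.77). The count of 7 became 5, 3 and 3 without *lpcat* replicate 1, 2 or 3, became 4, 3 and 3 without WT replicate 1, 2 or 3, and 0 without the 3 libraries of highest shoot marker level. With *lpcat* control replicate 2 left out, 10 rose and 1 fell. In a list of 21 vesicle trafficking genes, in part the same genes, SAR1A, PRA1.B5, the synaptobrevin gene VAMP722 (0.49) and the syntaxin gene SYP121 (0.38) rose and 0 fell. The median there was 0.04. VAMP722 and SYP121 did not pass without any 1 of the 6 libraries.

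Small heat shock proteins hold unfolded proteins in solution. Of 13 such genes tested, 7 rose in *lpcat*, 0 fell and 6 did not pass, where 2.13% of all genes rose, and the median log2 fold change was 1.46. HSP26.5 had 149, 147 and 135 normalized counts in *lpcat*, against 8.44, 10.5 and 13.7 in WT (log2 fold change 3.62 ± 0.67, limma adjusted p = 0.00482). HSP17.4, of the cytosolic class, had 185, 232 and 205 normalized counts in *lpcat*, against 20.6, 7.37 and 13.7 in WT (log2 fold change 3.90 ± 0.88, limma adjusted p = 0.0194). The *lpcat* libraries were far above the WT libraries in both, but HSP26.5 kept its call without each of the 6 libraries while HSP17.4 kept it only without WT replicate 1 or 3. The number that passed was 4, 2 and 3 without *lpcat* replicate 1, 2 or 3, it was 3, 2 and 5 without WT replicate 1, 2 or 3, and 0 without the 3 libraries of highest shoot marker level. It was 9 without *lpcat* control replicate 2. HSP17.6A and HSP17.6II are neighbouring loci and their reads may be shared. Of 19 genes of the HSP70, HSP90 and HSP101 families and their cochaperones, 3 rose and 0 fell, with a median of 0.13. HSP70B, a heat-inducible HSP70, had 178, 173 and 175 normalized counts in *lpcat*, against 59.98, 57.9 and 64.2 in WT (log2 fold change 1.52 ± 0.34, limma adjusted p = 0.0183). Of the 6 fits without 1 of these libraries, it passed only in that without WT replicate 3. Among 13 heat shock factor genes and MBF1C, the factor genes HSFA3 (1.59) and HSFB2A (0.81) and the coactivator gene MBF1C (1.32) rose. In that list 0 rose without *lpcat* replicate 2 and 5 without *lpcat* control replicate 2.

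The core of a heat shock element is spelled GAA, any 2 bases, TTC, any 2 bases and GAA. It was searched on both strands in RefSeq promoters of TAIR10.1, each taken as the 300 bases before the annotated start. It stands in 133 of 27437 promoters (0.485%), in 2 of 14 small heat shock protein genes and in 1 of the 7 that rose. That member, HSP17.4, is shown because it holds the element more than once close to its start, in the 160 bases before it (chr3:16984868-16985027, minus strand, element in capitals).
HSP17.4: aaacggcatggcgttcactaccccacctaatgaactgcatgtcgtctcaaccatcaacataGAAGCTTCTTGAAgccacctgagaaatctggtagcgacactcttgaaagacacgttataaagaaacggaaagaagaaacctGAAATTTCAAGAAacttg
The element is held 2 times in this stretch, and the nearer one ends 5 bases from the end of the stretch. A match in a window is a description of its letters.

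The mitochondrial dysfunction regulon is a set of nuclear genes that the factors NAC013 and NAC017 are known to control. Of 16 tested, 7 rose in *lpcat*, 0 fell and 9 did not pass, where 2.13% of all genes rose, with a median log2 fold change of 1.00. OM66, an ATPase of the outer mitochondrial membrane, had 213, 327 and 371 normalized counts in *lpcat*, against 110, 102 and 131 in WT (log2 fold change 1.37 ± 0.26, limma adjusted p = 0.00548). AOX1A, the main alternative oxidase gene, had 415, 646 and 606 normalized counts in *lpcat*, against 274, 304 and 282 in WT (log2 fold change 0.93, limma adjusted p = 0.0285). In both, *lpcat* replicate 1 was the lowest of its group, yet above every WT library. NDA1, an alternative NADH dehydrogenase, had 6.09, 13.1 and 9.83 normalized counts in *lpcat* and was at 0 in WT replicates 1 and 2 and at 2.29 in WT replicate 3 (limma adjusted p = 0.0128). The factor gene NAC013 rose (1.07), and NAC017 did not pass (0.03, limma adjusted p = 0.894). Reads of mitochondrially encoded genes made up 0.0457% to 0.0523% of the *lpcat* libraries, against 0.0220% to 0.0267% of the WT libraries, and their part in the result was not tested. The count of 7 was 7, 1 and 2 without *lpcat* replicate 1, 2 or 3, it was 1, 1 and 5 without WT replicate 1, 2 or 3, and 0 without the 3 libraries of highest shoot marker level. With *lpcat* control replicate 2 left out, 11 members rose. OM66 passed without each of the 6.

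The mitochondrial dysfunction motif was searched on both strands as CTTG, any 5 bases, CA, any base and G, which may be looser than the motif itself. This pattern stands in 570 of the 27437 promoters (2.08%), in 7 of the 16 genes of the list and in 3 of the 7 that rose. Those 3 are shown to set their sites side by side, each as the 160 bases before the annotated start with the motif in capitals: NDA1 (chr1:2203944-2204103, plus strand), HSP23.5 (chr5:20891003-20891162, plus strand), a small heat shock protein of mitochondria, and CYP81D8 (chr4:17571744-17571903, minus strand), a cytochrome P450.
NDA1: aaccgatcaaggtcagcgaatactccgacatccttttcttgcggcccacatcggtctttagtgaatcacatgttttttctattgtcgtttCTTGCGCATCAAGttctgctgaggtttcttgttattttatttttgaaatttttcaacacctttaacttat
HSP23.5: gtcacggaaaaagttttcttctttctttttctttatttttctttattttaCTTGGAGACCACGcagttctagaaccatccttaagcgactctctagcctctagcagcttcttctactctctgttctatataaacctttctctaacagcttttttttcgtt
CYP81D8: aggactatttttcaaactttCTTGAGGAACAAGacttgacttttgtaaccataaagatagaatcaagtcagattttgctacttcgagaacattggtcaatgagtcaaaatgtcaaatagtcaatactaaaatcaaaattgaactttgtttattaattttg
The motif ends 57, 97 and 127 bases before the end of the stretch in NDA1, HSP23.5 and CYP81D8. HSP23.5 had 67.0, 126 and 104 normalized counts in *lpcat*, against 31.9, 40.0 and 64.2 in WT (log2 fold change 1.124, limma adjusted p = 0.0165). CYP81D8 had 147, 240 and 253 normalized counts in *lpcat*, against 54.4, 81.1 and 80.2 in WT (log2 fold change 1.54, limma adjusted p = 0.0224). The lowest *lpcat* library of HSP23.5 was close to the highest WT library, and that of CYP81D8 was well above it. OM66, AOX1A, AOX1D and NAC013, the other members that rose, do not hold these letters in the window.

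For the ER, the ER stress response element, spelled CCAAT, any 9 bases and CCACG, was searched on both strands. It stands in 91 of the 27437 promoters (0.332%), in 3 of the 22 chaperone genes and in 1 of the 2 that rose, PDIL1-2, whose 160 bases before the start are shown for that reason (chr1:29126488-29126647, plus strand, element in capitals).
PDIL1-2: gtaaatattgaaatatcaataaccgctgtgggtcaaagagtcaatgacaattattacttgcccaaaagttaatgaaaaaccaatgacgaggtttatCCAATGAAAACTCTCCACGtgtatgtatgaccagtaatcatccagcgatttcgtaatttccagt
PDIL1-2 had 2416, 2331 and 2259 normalized counts in *lpcat*, against 1680, 1635 and 1889 in WT (log2 fold change 0.43, limma adjusted p = 0.0189). The groups did not overlap, and the call was lost without *lpcat* replicate 1 or 2 or WT replicate 1 or 2.

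**Figure D4:**
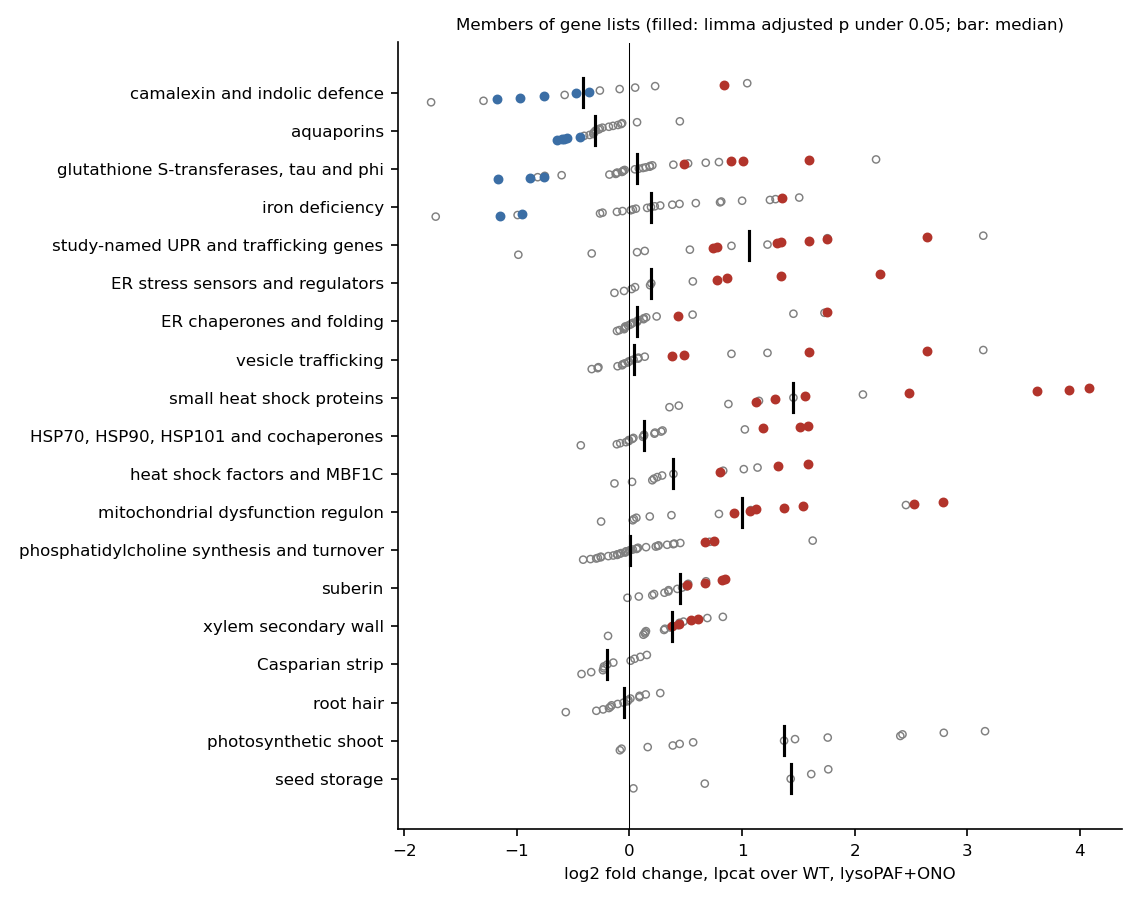
Log2 fold change of *lpcat* over WT under lysoPAF+ONO (horizontal axis) for each tested member of 19 gene lists, filled where the limma adjusted p is under 0.05, with the median of each list as a bar. Medians run from -0.42 for indolic defence to 1.46 for small heat shock proteins, and no member of the shoot and seed storage lists is filled.

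Genes of PC metabolism moved little. Of 33 tested, 2 rose and 0 fell, where 2.13% of all genes rose and 1.14% fell, and the median log2 fold change was 0.01. NMT1, the phosphoethanolamine methyltransferase that supplies phosphocholine for PC synthesis, had 4021, 3918 and 4237 normalized counts in *lpcat*, against 2449, 2452 and 2734 in WT (log2 fold change 0.67 ± 0.09, limma adjusted p = 0.000142). NPC6, a non-specific phospholipase C that cleaves the head group from PC, had 239, 201 and 212 normalized counts in *lpcat*, against 126, 115 and 147 in WT (log2 fold change 0.75 ± 0.14, limma adjusted p = 0.00638). Both passed without each of the 6 libraries, and NMT1 also without the 3 of highest shoot marker level (0.71). PLA2-ALPHA, one of the small secreted phospholipases A2, had 86.4, 82.3 and 102 normalized counts in *lpcat* and 64.7, 65.3 and 66.4 in WT, without passing (log2 fold change 0.45, limma adjusted p = 0.134). LPEAT1 and LPEAT2, which encode acyltransferases for lysophosphatidylethanolamine, were at -0.07 and -0.25 and did not pass, and of 9 genes of triacylglycerol assembly and desaturation 0 passed.

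Among 16 suberin genes, FAR1, FAR4 and FAR5, which encode reductases that make fatty alcohols, and the transporter gene ABCG2 rose and 0 fell, with a median of 0.45. Over all genes tested, 2.13% rose and 1.14% fell. FAR5 had 670, 710 and 625 normalized counts in *lpcat*, against 454, 419 and 280 in WT (log2 fold change 0.83, limma adjusted p = 0.013). FAR4 had 681, 647 and 667 normalized counts in *lpcat*, against 475, 482 and 441 in WT (log2 fold change 0.51, limma adjusted p = 0.0471). All 3 *lpcat* libraries were above all 3 WT libraries in 14 of the 16 genes, where this held for 12.8% of all genes tested. FAR1 and ABCG2 passed without each of the 6 libraries, FAR5 not without *lpcat* replicate 2 or WT replicate 3, and FAR4 not without any 1 of them; without the 3 of highest shoot marker level 0 passed. With *lpcat* control replicate 2 left out, 8 suberin genes rose. Of 17 genes of the xylem secondary wall, CESA4 (0.44), CESA7 (0.38), IRX9 (0.55) and COBL4 (0.61), which act in making cellulose and xylan, rose and 0 fell, with a median of 0.38. The number was 1, 0 and 2 without *lpcat* replicate 1, 2 or 3 and 2, 1 and 1 without WT replicate 1, 2 or 3. It was 8 without *lpcat* control replicate 2. Casparian strip and root hair lists, with 11 and 15 genes, had 0 that passed and medians of -0.20 and -0.05.

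Further large changes were seen in single genes. AT2G01422, annotated as a noncoding RNA, had 163, 141 and 128 normalized counts in *lpcat*, against 0, 0 and 4.58 in WT. DREB19, of a family of dehydration-responsive transcription factors, had 34.7, 78.6 and 51.1 normalized counts in *lpcat*, against 0.937, 1.05 and 2.29 in WT (limma adjusted p = 0.0117). CYP707A4, which breaks down abscisic acid, had 32.3, 23.4 and 21.6 normalized counts in *lpcat*, against 0.937, 0 and 1.15 in WT (limma adjusted p = 0.00135). Each of these was near 0 in WT, so a fitted fold change depends on the pseudocount and is not given. Further rises were AT3G22910, which encodes the calcium pump ACA13 (log2 fold change 3.82), the calmodulin-like gene CML37 (3.72), the zinc finger gene AT3G46080 (3.67), the pseudogene AT4G21730 (3.32), the cytochrome P450 gene CYP71B19 (3.12), SRO3 (3.08) and the germin-like cupin gene AT5G39120 (2.95). Of these, CYP71B19, SRO3 and AT5G39120 passed without each of the 6 libraries, and CML37 did not without any 1 of them. AT4G33720, of the CAP family of secreted proteins, had 119, 183 and 177 normalized counts in *lpcat*, against 0.937, 7.37 and 105 in WT (log2 fold change 3.72, limma adjusted p = 0.0303). WT replicate 3 thus lay near the *lpcat* libraries. Of the 6 fits without 1 of these libraries, the call held only in that without WT replicate 3. The proline-rich protein gene AT1G61080 (1.49) and the pectin lyase-like gene AT3G27400 (2.096) were among the 10 smallest p-values. In all, 99 of 111 genes named by rule passed, which most of the rules required in advance. Of the 99, 40 also passed without each of the 6 libraries. All 99 kept their sign without the 3 libraries of highest shoot marker level, but genes whose groups do not overlap cannot change sign there.

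Of the 226 rises, 106 were also called on lysoPAF alone, which is 46.9% of the 226 and 21.4% of the 496 rises there, where 2.09% of genes were called higher and 1.21% lower (6.56% and 4.63% at an adjusted p under 0.05 alone). On control medium 17 of them were also called, 7.52% of the 226 and 20.7% of the 82 rises there, where 0.345% of genes were called higher and 0.0884% lower. Of the 49 falls, 18 were also called on lysoPAF and 7 on control medium, which is 36.7% and 14.3% of the 49. The control-medium calls include *lpcat* control replicate 2, which lay near the *lpcat* libraries on lysoPAF, and were not recomputed without it. The comparisons in different media share no samples. Their calls rest on 1 estimate of the spread for each gene, shared over all 18 libraries, so the calls are not independent. Called under lysoPAF+ONO alone were 118 rises and 29 falls, which does not show that media differ. A test of the difference itself, the interaction of genotype with ONO, was positive for 106 genes (0.446%) and negative for 193 (0.812%) at an adjusted p under 0.05. Without *lpcat* control replicate 2 the counts were 476 and 703. They changed by less than 1.5 times without *lpcat* or WT lysoPAF+ONO replicate 3 or *lpcat* lysoPAF replicate 1, and were 20 to 64 and 23 to 97 on leaving out any 1 of the other 9 libraries of the contrast. The interaction with the combined treatment was positive for 48 genes (0.202%) and negative for 143 (0.602%), and for 555 and 969 without *lpcat* control replicate 2. On leaving out 1 of the other 11 libraries of that contrast the counts were 16 to 62 and 56 to 169.

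AT5G44400, of the berberine bridge enzyme family, had 892, 738 and 828 normalized counts in *lpcat* with ONO, against 320, 272 and 296 in WT (log2 fold change 1.47 ± 0.12, limma adjusted p = 3.32e-07). Its log2 fold change was -0.22 on control medium and -0.13 on lysoPAF. The difference between genotypes thus departed from that on lysoPAF by 1.59 (limma adjusted p = 0.000126) and from that on control medium by 1.68 (limma adjusted p = 0.000102). TIN1, known from tunicamycin treatment as an ER stress gene, had 20.7, 37.4 and 31.4 normalized counts in *lpcat*, against 8.44, 3.16 and 5.73 in WT. Its log2 fold changes were 0.68 on control medium, 0.03 on lysoPAF and 2.23 with ONO (interaction with ONO 2.19, limma adjusted p = 0.0196). FAR1 had 553, 574 and 566 normalized counts in *lpcat* with ONO, against 332, 308 and 301 in WT, and log2 fold changes of -0.08 on control medium, 0.17 on lysoPAF and 0.85 with ONO (interaction with ONO 0.68, limma adjusted p = 0.0337). VSP1, a vegetative storage protein gene that responds to jasmonate, went the other way on lysoPAF, with log2 fold changes of 0.00 on control medium, -0.59 on lysoPAF and 0.63 with ONO (interaction with ONO 1.22, limma adjusted p = 0.00547). The interactions with ONO of AT5G44400 and VSP1 passed in all 25 alternatives, that of TIN1 was lost in 7 of 25 (adjusted p up to 0.176), and that of FAR1 in 12 of 25 (adjusted p up to 0.196). Without *lpcat* control replicate 2 the control-medium values were -0.06 for AT5G44400, 0.48 for TIN1, -0.06 for FAR1 and 0.16 for VSP1, and the interaction of AT5G44400 with the combined treatment was 1.53.

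In the negative direction, F6'H1 had log2 fold changes of 0.03 on control medium, -0.02 on lysoPAF and -1.15 with ONO (interaction with ONO -1.13, limma adjusted p = 0.015; with the combined treatment -1.17, limma adjusted p = 0.0119). CYP81F2 was at -0.42 on control medium, -0.10 on lysoPAF and -0.97 with ONO (interaction with ONO -0.87, limma adjusted p = 0.0131). PIP1;4 was at -0.03 on control medium, 0.45 on lysoPAF and -0.60 with ONO (interaction with ONO -1.05, limma adjusted p = 0.000899), so its sign on lysoPAF was opposite to that with ONO. Of the 22 aquaporin genes, 3 had a negative interaction with ONO, namely PIP1;4, PIP2;7 (-0.70) and PIP2;5 (-1.37), and 0 a positive one. Over all genes, 0.812% had a negative interaction with ONO and 0.446% a positive one. AT5G39580, a class III peroxidase gene, had 373, 459 and 553 normalized counts in *lpcat* with ONO, against 1000, 1038 and 889 in WT, and log2 fold changes of 0.33 on control medium, 1.61 on lysoPAF and -1.09 with ONO (interaction with ONO -2.70, limma adjusted p = 0.000613). NMT1 rose in all 3 media, by 0.44 on control medium, 1.26 on lysoPAF and 0.67 with ONO on the log2 scale, and the interaction with ONO was -0.59 (limma adjusted p = 0.0217). The interactions with ONO of PIP1;4 and AT5G39580 passed in all 25 alternatives, and those of CYP81F2, F6'H1, NMT1 and PIP2;7 were lost in 1, 5, 8 and 10 of 25. Without *lpcat* control replicate 2 the control-medium values were 0.25 for F6'H1, -0.38 for CYP81F2, 0.04 for PIP1;4, -0.14 for AT5G39580 and 0.50 for NMT1.

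Against control medium, the difference between genotypes in root hair genes was smaller with lysoPAF+ONO. At an adjusted p under 0.05, 12 of 15 such genes were higher in *lpcat* on control medium (2.24% of all genes, and 0.53% lower), 6 on lysoPAF and 0 with ONO, and 8 had a negative interaction with the combined treatment and 0 a positive one (11 and 0 without *lpcat* control replicate 2). COBL9, needed for root hair growth, had 838, 684 and 747 normalized counts in *lpcat* with ONO, against 859, 915 and 772 in WT, so the groups overlapped (interaction -0.83, limma adjusted p = 0.00431). RSL2, a transcription factor of root hair growth, had an interaction of -1.38 (limma adjusted p = 0.0063). Of 11 Casparian strip genes, 6 were higher on control medium and 0 with ONO, and 5 had a negative interaction (6 without *lpcat* control replicate 2). The numbers of root hair and Casparian strip genes higher on control medium include that library and were not recomputed without it. Over all genes, 0.602% had a negative interaction with the combined treatment and 0.202% a positive one. In the positive direction stood the chaperone genes HSP70-4 (0.97, limma adjusted p = 0.00651) and HSP90.1 (1.32, limma adjusted p = 0.0225) and the oxidase gene AOX1D (3.73, limma adjusted p = 0.0433). That of HSP70-4 passed in all 24 alternatives, whereas that of HSP90.1 was lost in 12 of 24 (adjusted p up to 0.221) and that of AOX1D in 18 of 24 (adjusted p up to 0.36). Without *lpcat* control replicate 2 the interactions were 1.09 for HSP70-4, 1.68 for HSP90.1 and 4.38 for AOX1D. AOX1D had 0, 2.85 and 0 normalized counts in *lpcat* control replicates 1, 2 and 3, so the size of its interaction depends on the pseudocount.

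**Figure D5:**
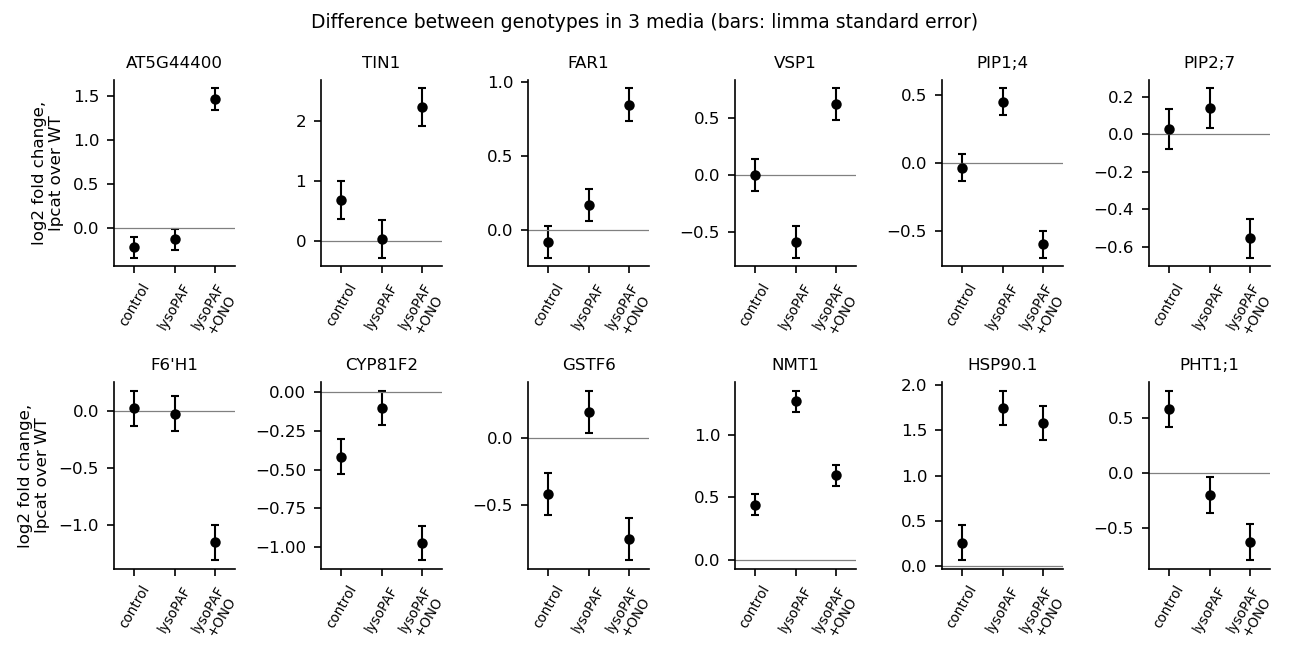
Log2 fold change of *lpcat* over WT (vertical axes) on control medium, on lysoPAF and on lysoPAF+ONO for 12 genes, with bars of 1 limma standard error and all 3 replicates of each group. AT5G44400, TIN1, FAR1 and F6'H1 depart from 0 most with ONO (1.47, 2.23, 0.85 and -1.15), and PIP1;4 and VSP1 have opposite signs on lysoPAF and with ONO.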

How the data were processed

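Root RNA from 18 libraries was sequenced after preparation with a TruSeq RNA kit v2, which does not mark strand. The authors aligned reads with STAR 2.4.0j to TAIR10 and counted them per gene, and the submitters' notes also name StringTie 1.0.3, HTSeq 0.6.0 and DESeq2 1.12.4. The deposited signal values are counts divided by a DESeq2 size factor for each library. Division by the smallest step of each library (0.609 to 1.24) returned whole reads for 100.0% of 400470 values above 0, within 0.001. The table held 35197 rows, of which 501 carried no gene identifier, and 33993 matched the RefSeq annotation of TAIR10.1. Its 0 columns of no sample needed no removal.

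Limma 3.58.1 (R 4.3.3) was fitted with a mean trend to log2(value + 1) over all 18 libraries, with 1 coefficient for each of the 6 groups and without a replicate term, since the study's methods name no block. The 23760 genes with at least 5 reads in all entered, with Benjamini-Hochberg adjustment over all of them. Fold changes are on the log2(value + 1) scale, which understates the change of low genes. List members and interactions needed an adjusted p under 0.05. The 38 lists held 563 genes, of which 549 had a row. The members and lists were chosen with earlier results of these data known.

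Genes were named by rule. The rules took LPCAT1 and LPCAT2, and genes the study names, or shows in its heat map, for the unfolded protein response and trafficking. They took the 14 largest rises and 10 largest falls called without overlap at a mean of at least 20 normalized counts, and the 10 smallest p. They also took up to 5 members of each list that passed and the 5 largest interactions of each kind. PEN2, PAD3, BIP1, BIP2, BIP3, AOX1A, NAC013, NAC017, GSTU4, GSTU18, PLA2-ALPHA, LPEAT1, LPEAT2, PIP2;5, COBL9, RSL2, LOX2 and SULTR1;2 were named after their values were seen. Alternatives were edgeR 4.0.16 and DESeq2 1.42.0 on the recovered reads, other scalings, filters and pseudocounts, a stricter threshold, a replicate block, only the groups compared, and leaving out libraries. The limma, edgeR (RLE factors) and DESeq2 fits were tested on simulated counts with known changes, and the other steps were not. Promoters came from RefSeq. Python 3.11.15, pandas 2.3.3 and matplotlib 3.10.9 were used for the rest.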

Additional observations from a re-analysis of the deposited data

Results flagged for a closer look

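The difference between *lpcat* and WT departed from that on another medium, by the limma test of the interaction at an adjusted p under 0.05, for 18 named genes when set against lysoPAF alone and for 16 when set against control medium, and 5 genes were in both. A positive value means that the log2 fold change of *lpcat* over WT was higher with lysoPAF+ONO.

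Against lysoPAF alone, the positive values were 6.16 for AT4G33720, 2.44 for CAF1a, 2.19 for TIN1, 1.59 for AT5G44400, 1.22 for VSP1, 1.04 for AT3G27400, 0.68 for FAR1 and 0.58 for APR3. The negative values were -2.70 for AT5G39580, -2.69 for CYP71A13, -2.17 for AT1G65486, -1.25 for AP180, -1.13 for F6'H1, -1.05 for PIP1;4, -0.95 for GSTF6, -0.87 for CYP81F2, -0.70 for PIP2;7 and -0.59 for NMT1. For AT4G33720, WT replicate 3 had 105 normalized counts where WT replicates 1 and 2 had 0.937 and 7.37.

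Against control medium, the positive values were 3.76 for DIN2, 3.73 for AOX1D, 2.42 for AT5G52390, 2.08 for CRK32, 1.87 for CYP706A2, 1.71 for AT3G27400, 1.68 for AT5G44400, 1.32 for HSP90.1, 0.97 for HSP70-4, 0.93 for FAR1 and 0.70 for LPCAT2. The negative values were -2.13 for PHT1;2, -1.35 for AP180, -1.21 for PHT1;1, -1.17 for F6'H1 and -0.92 for TIP2;2. AOX1D was near 0 in *lpcat* on control medium. All 16 passed without *lpcat* control replicate 2 as well.

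Over the other processing alternatives many of these calls were lost. Against lysoPAF alone, 4 of the 18 (AT5G39580, AT5G44400, PIP1;4 and VSP1) passed in all 25 alternatives, and 4 were lost in more than 12 of them: AP180 in 15, CYP71A13 in 14, and AT1G65486 and GSTF6 in 13 each. Against control medium, 3 of the 16 (AT3G27400, AT5G44400 and HSP70-4) passed in all 24, and 5 were lost in more than 12: CRK32 in 19 (adjusted p up to 0.28), AOX1D in 18 (up to 0.36), DIN2 in 17 (up to 0.36), AT5G52390 in 16 and AP180 in 15. The alternatives include a threshold of 0.01 and leaving out single libraries.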

How the results depend on the processing

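On the recovered reads, edgeR called 219 genes higher and 65 lower in *lpcat* with RLE factors and DESeq2 219 and 66, against 226 and 49 by limma. An adjusted p under 0.01 left 79 and 17, and leaving out the 3 libraries of highest shoot marker level, an alternative added after the data were seen, 29 and 28. Leaving out 1 library gave 75 to 402 rises and 20 to 105 falls, the highest without *lpcat* control replicate 2. For the interaction with ONO (106 positive, 193 negative), the counts were 189 and 459 with DESeq2, 422 and 580 with only the groups compared, 13 and 18 under 0.01, 43 and 123 without the 3 libraries, and 20 to 476 and 23 to 703 on leaving out 1 library. For the interaction with the combined treatment (48 and 143), only the groups compared gave 13 and 41, the stricter threshold 11 and 39, leaving out the 3 libraries 14 and 50, leaving out 1 library 16 to 555 and 56 to 969, and DESeq2 292 negative. The cause was not tested. VPS45, not called at 0.07, was at -0.018 without the 3 libraries and between -0.016 and 0.12 on leaving out 1. Replicate numbers did not pair the samples: deviations of same-numbered samples correlated at -0.0068, 0.0215 and -0.009. The replicate block gave 235 rises and 52 falls, of which 216 and 47 were called without it. Of the *lpcat* against WT values of named genes under the alternatives, 1649 kept direction and side of the threshold, 434 lost the call, 24 gained it and 2 reversed; of their interactions, 577 kept the call and 257 lost it. With 3 libraries a side, a difference that did not pass is not shown to be absent.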

Other observations

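Several lists outside the groups described above had few members that moved, where 2.13% of all genes rose and 1.14% fell. In the jasmonate list, JAZ1, a repressor of the pathway, had 1528, 1731 and 1527 normalized counts in *lpcat*, against 1094, 968 and 1264 in WT (log2 fold change 0.53, limma adjusted p = 0.00925), and VSP1 and the biosynthetic gene AOC2 (0.76) also rose, 3 of 26 in all with a median of 0.15. LOX2, a lipoxygenase gene of shoot chloroplasts, was at 0 in *lpcat* replicate 1 and in all 3 WT libraries and at 28.07 and 23.59 normalized counts in *lpcat* replicates 2 and 3, the libraries of highest shoot marker level. Of 10 sulphate genes, APR1 and APR3, which encode reductases of sulphate assimilation, rose. APR1 had 1791, 1928 and 1766 normalized counts in *lpcat*, against 1276, 1398 and 1393 in WT (log2 fold change 0.43, limma adjusted p = 0.00396), and passed without each of the 6 libraries. The sulphate transporter gene SULTR1;2 had 1123, 1020 and 1089 normalized counts in *lpcat*, against 1770, 1649 and 1721 in WT, and did not pass (log2 fold change -0.67, limma adjusted p = 0.248).

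Of 26 genes of abscisic acid and dehydration, CYP707A4 and the homeobox gene HB7 (0.66) rose, with a median of 0.39. Of 24 phosphate starvation genes, the phosphate exporter homologue gene PHO1;H1 (1.22) and PS2 rose and PHT1;1 fell, with a median of 0.30. The number of rises was 0 without *lpcat* replicate 2 or 3 or WT replicate 1 or 2, and 10 without *lpcat* control replicate 2. Of 29 cell division genes only the B-type cyclin gene CYCB2;4 (0.46, limma adjusted p = 0.0321) passed. Of 18 phenylpropanoid genes, CAD5 and 4CL3 rose, while only 5 had a positive log2 fold change and the median was -0.12; 4CL3 did not pass without any 1 of the 6 libraries and CAD5 not without *lpcat* replicate 2 or 3 or WT replicate 3. Of 21 nitrate, 10 flavonoid, 9 autophagy, 9 root triterpene and 7 hypoxia genes, 0 passed.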
